A study of Mus musculus with 4 samples.

Results

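The Polycomb repressive complexes are represented here by 10 subunit genes chosen by name, of which 9 were found in both expression tables. These are *Ezh2*, *Eed*, *Suz12*, *Jarid2*, *Phf19*, *Rnf2*, *Ring1*, *Cbx7* and *Pcgf6*, out of 9936 genes listed. *Mtf2* was not analysed here. None of the 9 genes had a failed expression estimate, and all 9 passed the filter on low values. RNA-Seq was performed on LF2 cells, a female mouse ES cell line of strain 129/J that was grown on feeder cells and then passed without them. All cells were treated for 24 hr, with either PBS or AA (L-ascorbic acid, 50 µg/ml) and with either DMSO or 10 µM GSK-J4, an inhibitor of JmjC histone demethylases. PBS served as the vehicle of AA and DMSO as that of GSK-J4. The conditions PBS+DMSO, PBS+GSK-J4, AA+DMSO and AA+GSK-J4 have 1 library each, and 4 values in a row are given in this order. Without replicates the spread between libraries of one condition is not known, so differences are described and no p-value is given.

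Polycomb group proteins keep developmental genes silent. PRC2 methylates histone H3 at lysine 27 through Ezh2 or Ezh1, and needs Eed and Suz12 for this activity, while Jarid2, Mtf2 and Phf19 help to bring it to its targets. PRC1 monoubiquitinates histone H2A through Rnf2 or Ring1. Canonical PRC1 reads H3K27 trimethylation through a Cbx protein such as Cbx7, and variant PRC1 complexes are defined by other Pcgf proteins such as Pcgf6. In ES cells, both complexes occupy many promoters of genes that act later in development.

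Expression is given as FPKM, the fragments on a gene relative to its exon length and to all mapped fragments, added up over its coding sequence groups. Of 18 ES cell marker genes, 16 had a value, and all 16 were above 1 FPKM in every library, led by *Pou5f1* at 867 FPKM in PBS+DMSO. Summed over the markers, the libraries had 2716, 1647, 2501 and 1510 FPKM. For feeder fibroblasts, 8 of 18 markers had a value, none was at 0 in any library, and they summed to 36.7, 52.1, 31.8 and 46.9 FPKM. Fibroblast markers thus summed higher, and ES cell markers lower, in both GSK-J4 libraries, and the part of this in the results below was not tested. The sum over all 9779 genes without a failed estimate was also smaller with GSK-J4, at 275575 and 271205 FPKM against 360621 and 342327 with DMSO. Fewer cells of a type and less RNA per cell cannot be told apart in such libraries.

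The 9 subunit genes fell into an abundant and a scarce set in all 4 libraries. *Ezh2*, *Eed*, *Suz12*, *Rnf2*, *Pcgf6* and *Jarid2* had between 22.3 and 71.4 FPKM. *Phf19*, *Ring1* and *Cbx7* had between 1.54 and 4.86 FPKM. In both GSK-J4 libraries, every abundant gene was below both DMSO libraries.

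**Figure D1:**
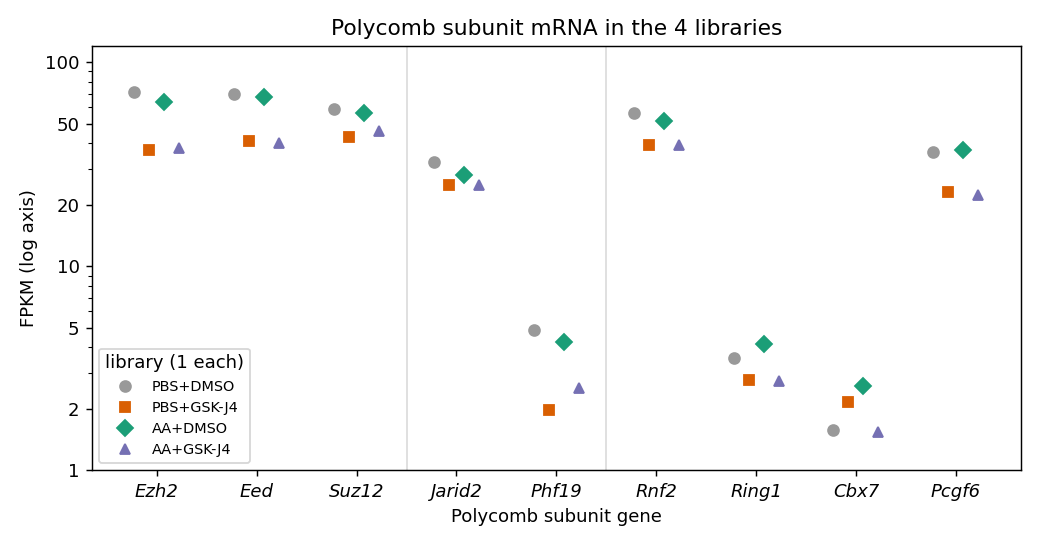
Expression of the 9 Polycomb subunit genes in the 4 libraries, with FPKM on a log axis and 1 point per library, ordered as PRC2 core, PRC2 accessory and PRC1 subunits. For *Ezh2* the DMSO libraries are at 71.4 and 63.8 FPKM and the GSK-J4 libraries at 37.1 and 38.1, while *Cbx7* at 1.54 to 2.57 shows no such separation.

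In the deposited FPKM, the core genes of PRC2 were lower with GSK-J4 than with DMSO, both without and with AA. *Ezh2*, the gene of the main catalytic subunit in ES cells (chromosome 6, 47530159 to 47595344 of mm10), had 71.4 FPKM in PBS+DMSO against 37.1 in PBS+GSK-J4, and 63.8 in AA+DMSO against 38.1 in AA+GSK-J4. The GSK-J4 libraries were thus 1.93-fold lower without AA and 1.67-fold lower with AA. *Eed*, whose protein binds trimethylated H3K27 and stimulates the enzyme (chromosome 7, 89954673 to 89981987), had 69.9, 40.9, 67.3 and 40.2 FPKM. This is 1.71-fold lower without AA and 1.67-fold lower with AA. *Suz12*, which encodes the scaffold of the complex (chromosome 11, 79993435 to 80034408), had 58.7, 43.0, 56.0 and 46.2 FPKM. Its differences were smaller, at 1.36-fold and 1.21-fold. The difference of *Suz12* with AA did not stay below 0 when libraries were scaled to the same total, as given below.

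*Suz12* is the sum of 2 coding sequence groups whose values differed in unlike ways between libraries. The larger group had 48.8, 39.6, 49.2 and 40.1 FPKM, and its log2 ratio of GSK-J4 to DMSO, taken with 1 FPKM added to each value, was -0.29 without AA and -0.29 with AA. The smaller group had 9.86, 3.35, 6.84 and 6.01 FPKM, with log2 ratios of -1.32 and -0.16. The smaller group was therefore the source of most of the difference between the *Suz12* comparisons. How reads were divided between the groups was decided by the authors' software, and the split of a gene between its groups is less certain than its sum.

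Among the PRC2 accessory subunits, *Jarid2* was abundant and *Phf19* scarce. *Jarid2*, a DNA-binding partner of PRC2 without demethylase activity of its own (chromosome 13, 44729475 to 44921639), had 32.3 FPKM in PBS+DMSO against 24.97 in PBS+GSK-J4, and 28.1 in AA+DMSO against 24.9 in AA+GSK-J4. It was 1.29-fold lower without AA and 1.13-fold lower with AA, the smallest difference with AA among the 9 genes. *Phf19*, a Polycomb-like protein whose Tudor domain binds methylated H3K36 (chromosome 2, 34893761 to 34914059), had 4.86, 1.97, 4.23 and 2.53 FPKM. It was 2.46-fold lower without AA and 1.67-fold lower with AA as FPKM, all of its values being below 5 FPKM.

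The catalytic subunits of PRC1 also differed in level. *Rnf2*, which encodes the E3 ligase Ring1B (chromosome 1, 151469372 to 151500932), had 56.1 FPKM in PBS+DMSO against 39.1 in PBS+GSK-J4, and 51.2 in AA+DMSO against 39.0 in AA+GSK-J4, which is 1.44-fold and 1.31-fold lower with GSK-J4. *Ring1*, which encodes the paralog Ring1A (chromosome 17, 34021015 to 34024653), had 3.56, 2.76, 4.16 and 2.73 FPKM. *Rnf2* made up 94.0, 93.4, 92.5 and 93.5% of the FPKM of the pair. The ratio of *Rnf2* to *Ring1* was 15.8, 14.1, 12.3 and 14.3, lower with GSK-J4 without AA and higher with AA.

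*Pcgf6*, the subunit that defines a variant PRC1 with roles at germ cell genes (chromosome 19, 47033619 to 47050924), had 36.3 FPKM in PBS+DMSO against 23.1 in PBS+GSK-J4, and 37.0 in AA+DMSO against 22.3 in AA+GSK-J4. It was 1.57-fold lower with GSK-J4 without AA and 1.66-fold lower with AA. *Cbx7*, a chromodomain subunit of canonical PRC1 (chromosome 15, 79913509 to 79971190), had 1.57, 2.17, 2.57 and 1.54 FPKM. It was the single member whose GSK-J4 library was higher than its DMSO library without AA, and it was lower with AA. It was below its paralogs *Cbx2*, at 5.96 to 9.501 FPKM, and *Cbx6*, at 9.17 to 13.2 FPKM, in every library. The paralog *Cbx8*, at 0.33 to 0.87 FPKM, was below *Cbx7* in every library. All values of *Cbx7* were at most 2.57 FPKM, and without replicates the opposite signs were not tested.

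On the log2 scale with 1 FPKM added, which understates the differences of weakly expressed genes, the 9 genes had a median ratio of GSK-J4 to DMSO of -0.51 without AA and -0.49 with AA. Over all genes with at least 1 FPKM in either library, the medians were -0.17 and -0.16. Without AA, 8 of the 9 subunits were below 0, as were 63.0% of all 9196 genes. With AA, all 9 subunits were below 0, against 62.2% of 9139 genes. On this scale no subunit reached a 2-fold difference, which 8.46% of all genes did without AA and 7.51% with AA.

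*Ezh2*, *Eed*, *Phf19* and *Pcgf6* were at least 1.5-fold lower without AA on this scale, 4 of 9 genes, where 19.3% of all genes were. *Ezh2*, *Eed* and *Pcgf6* were so with AA, 3 of 9 against 17.8% of all genes. No subunit was at least 1.5-fold higher in either comparison, while 11.6% of all genes were without AA and 10.1% with AA. The log2 ratios were -0.93 and -0.73 for *Ezh2*, -0.76 and -0.73 for *Eed*, and -0.63 and -0.71 for *Pcgf6*. For *Phf19* they were -0.98 and -0.57.

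Because GSK-J4 ratios across all genes were lower at higher expression, each subunit was also set against the genes of its expression bin, 1 of 10 bins of equal size by mean FPKM. This way of ranking was chosen after values had been seen. *Ezh2*, *Eed*, *Suz12* and *Rnf2* lay in bin 9 from the bottom, where the medians were -0.47 without AA and -0.41 with AA. *Ezh2* was lower than all but 7.18% of the genes of its bin without AA and all but 15.8% with AA. *Eed* was lower than all but 19.6% and 16.0%, *Pcgf6* than all but 20.8% and 11.5%, and *Phf19* than all but 2.18% and 11.4%. *Ring1* had 23.4% and 14.99% of its bin below it. These 5 genes were in the lowest 25% of their bin in both comparisons, and the share of all genes there in both was not computed. Counted by comparison, 5 of the 9 subunits were there without AA and 6 with AA. In any 1 comparison 25% of genes hold this place by construction. Ranked in the same way for AA against PBS, 4 of the 9 subunits were in the lowest 25% in DMSO and 1 in GSK-J4. In the highest 25% were 3 and 2 subunits for AA, and 0 in either GSK-J4 comparison. A count of 4 or 5 in the lowest 25% was thus not particular to GSK-J4.

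*Suz12*, *Rnf2* and *Jarid2* differed from DMSO about as much as other genes of their level. The share of the bin below the gene was 52.7% without AA and 63.9% with AA for *Suz12*, 44.1% and 53.3% for *Rnf2*, and 48.9% and 65.2% for *Jarid2*. *Cbx7* went from 67.5% to 14.0%.

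**Figure D2:**
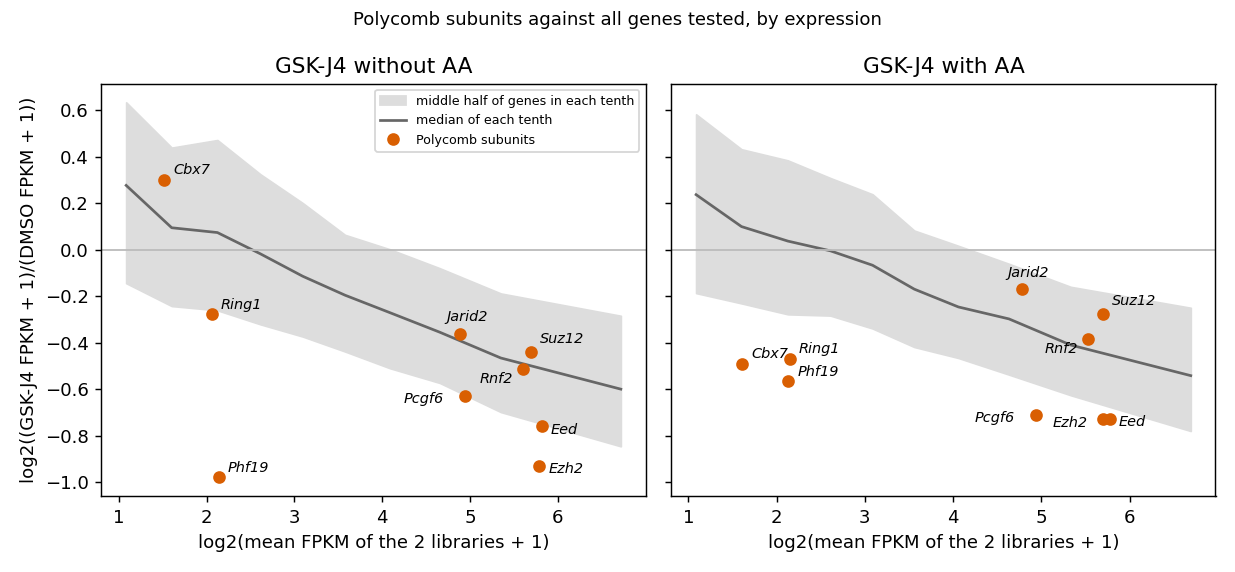
Log2 ratio of GSK-J4 to DMSO against the mean expression of each pair of libraries, with the 9 subunits as points, the median of all genes per expression bin as a line and the range from the 25th to the 75th percentile shaded. *Ezh2*, *Phf19* and *Pcgf6* lie at or below the shaded range in both panels, while *Suz12*, *Rnf2* and *Jarid2* lie inside it.

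How the libraries are scaled to each other moves all ratios together. Dividing each library by its upper quartile moved the medians of all genes of -0.17 and -0.16 to 0.07 in both comparisons, and scaling to the same total moved them to 0.17 and 0.14. *Ezh2*, *Eed*, *Phf19*, *Rnf2* and *Pcgf6* were below 0 in both comparisons under each of these scalings. The median of the 9 subunits was -0.24 without AA and -0.32 with AA by upper quartile, and -0.13 and -0.27 by total. Scaled to the same total, *Ezh2* was at -0.55 without AA and -0.40 with AA, *Eed* at -0.38 and -0.40, and *Pcgf6* at -0.25 and -0.38. *Jarid2* turned to 0.01 and 0.15, *Ring1* to 0.02 without AA, and *Suz12* to 0.05 with AA. Under this scaling 1 subunit without AA and 0 with AA were at least 1.5-fold lower, as were 4.59% and 5.44% of all genes, and under upper-quartile scaling 2 and 0 subunits, against 7.44% and 7.29% of all genes.

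**Figure D3:**
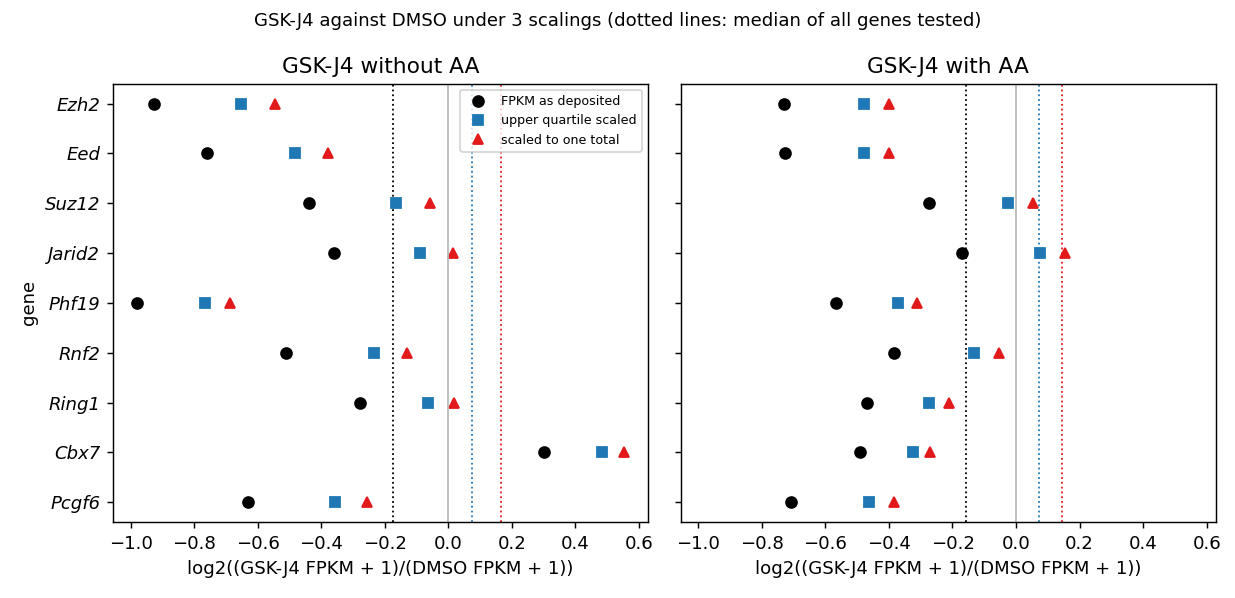
Log2 ratio of GSK-J4 to DMSO for the 9 subunits under 3 scalings, with dotted lines at the median of all genes under each. *Ezh2* stays left of 0 and left of the median of all genes in both panels, whereas *Jarid2* crosses 0 and reaches 0.15 with AA when libraries are scaled to the same total.

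Ratios between subunits within a library do not depend on that scaling. *Suz12* stood at 0.821 of the *Ezh2* level in PBS+DMSO and 0.878 in AA+DMSO, and at 1.16 in PBS+GSK-J4 and 1.21 in AA+GSK-J4. The ratio of *Jarid2* to *Ezh2* was 0.453 and 0.441 with DMSO and 0.673 and 0.653 with GSK-J4. That of *Rnf2* to *Ezh2* was 0.785 and 0.802 with DMSO and 1.05 and 1.02 with GSK-J4. For these 3 genes, the DMSO libraries lie close together and apart from both GSK-J4 libraries. All 3 ratios divide by the same *Ezh2* value of each library and are not independent of each other. *Eed* kept nearer to *Ezh2*, at 0.979 and 1.05 with DMSO and 1.10 and 1.06 with GSK-J4. *Pcgf6* was at 0.508 and 0.580 with DMSO and 0.623 and 0.584 with GSK-J4, where the values with AA hardly differ.

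The order of the subunits shifted accordingly. *Ezh2* ranked 1 of the 9 genes in PBS+DMSO and 2 in AA+DMSO, but 4 in both GSK-J4 libraries. *Suz12* ranked 3 in both DMSO libraries and 1 in both GSK-J4 libraries. These ranks of *Suz12* rest on the sum of its coding sequence groups. The larger group alone, at 39.6 and 40.1 FPKM in the GSK-J4 libraries, was below *Eed* at 40.9 and 40.2. In the DMSO libraries, at 48.8 and 49.2, it was below *Rnf2* at 56.1 and 51.2. The paralog *Ezh1*, a weaker methyltransferase, was at 5.11, 5.45, 6.36 and 6.79 FPKM. The share of *Ezh2* in the sum of both paralogs was 93.3% in PBS+DMSO and 90.9% in AA+DMSO, and 87.2% and 84.9% in the matching GSK-J4 libraries.

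**Figure D4:**
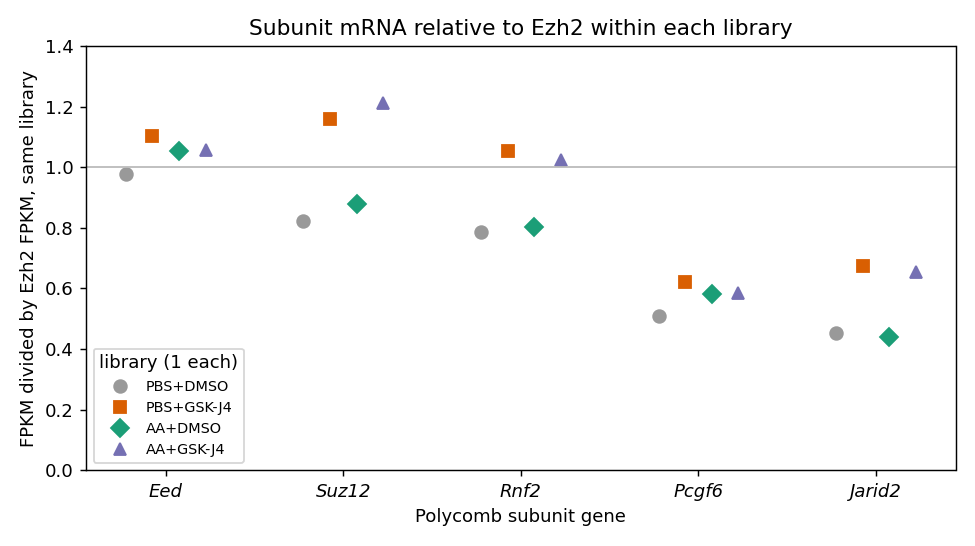
FPKM of *Eed*, *Suz12*, *Rnf2*, *Pcgf6* and *Jarid2* divided by the FPKM of *Ezh2* in the same library, 1 point per library. *Suz12* and *Rnf2* lie below 1 in both DMSO libraries and above 1 in both GSK-J4 libraries, and *Eed* ranges from 0.979 to 1.10.

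The share of *Pcgf6* among its paralogs was taken over the paralogs with a value. *Pcgf6* made up 63.5, 58.6, 65.1 and 52.9% of 4 of the 6 Pcgf genes, without *Pcgf2* and *Pcgf5*. It was the most abundant of the Pcgf genes with a value in each library.

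AA itself made little difference to the subunits. The AA comparisons reuse the same 4 libraries as the GSK-J4 comparisons and are not independent of them. In DMSO, the log2 ratio of AA to PBS ranged from -0.19 for *Jarid2* to 0.48 for *Cbx7*, with a median of -0.06 against -0.05 for all genes. In GSK-J4 it ranged from -0.32 for *Cbx7* to 0.25 for *Phf19*, with a median of -0.004 against -0.02. No subunit was past 2-fold or 1.5-fold in either, where 1.3% and 4.31% of all genes were in DMSO, and 1.11% and 4.25% in GSK-J4. With a pseudocount of 0.1 in place of 1, *Cbx7* passed 1.5-fold in DMSO, at 0.68. The extremes belong to scarce genes: among the 6 abundant subunits, the largest AA ratio of either sign was -0.19.

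The promoters of the 9 genes were examined in RefSeq sequence of GRCm38.p6, over 250 bases before and 50 bases from each annotated start. *Jarid2* had 2 starts. These starts need not be those of the loci given above. The windows of *Ezh2*, *Eed*, *Jarid2* and *Cbx7*, the last from 79932597 to 79932896, lie inside their loci. Those of *Phf19*, *Ring1* and *Pcgf6* lie partly inside, and those of *Suz12* and *Rnf2* outside. For *Phf19* and *Rnf2*, the 50 bases from the start were not found whole in any GENCODE M21 transcript of the gene. Which starts gave the measured reads was not tested. Their median ratio of observed to expected CpG was 0.905, against 0.384 over 32851 promoters, and their median GC content was 65.8% against 52.7%. An E2F motif, spelled TTTCCCGC, TTTGGCGC, TTTCGCGC or TTTGCCGC on either strand, was present in 3 of 10 member promoters and in 2.26% of all promoters. All of these spellings contain CG, and no share was computed over promoters with a like ratio of observed to expected CpG. E2F factors link transcription to entry into S phase. The 3 genes were *Ezh2*, *Suz12* and *Phf19*, all of PRC2. The box CCAAT was found on either strand in 6 member promoters and 37.4% of all. The Max-type E-box CACGTG, in 7.15% of all promoters, and an ATF4 element spelled TGATGNAA, in 3.97%, were in none of the 10. A match to these letters is a description of the sequence, not evidence of binding.

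The 3 promoters with an E2F motif are printed up to 11 bases from the start, 250 bases each, 5′ to 3′ on the strand of the gene, because they set these PRC2 genes apart from the other members in sequence. Capitals mark E2F motifs and CCAAT boxes, either of which may read as its reverse complement. They cover chr6:47595020-47595269 on the minus strand for *Ezh2*, chr11:79992867-79993116 on the plus strand for *Suz12* and chr2:34913966-34914215 on the minus strand for *Phf19*.
Ezh2: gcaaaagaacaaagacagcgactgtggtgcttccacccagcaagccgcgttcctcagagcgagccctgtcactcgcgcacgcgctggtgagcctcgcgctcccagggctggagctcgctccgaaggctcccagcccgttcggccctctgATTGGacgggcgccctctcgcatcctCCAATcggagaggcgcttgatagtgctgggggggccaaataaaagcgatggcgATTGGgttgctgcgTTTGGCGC
Suz12: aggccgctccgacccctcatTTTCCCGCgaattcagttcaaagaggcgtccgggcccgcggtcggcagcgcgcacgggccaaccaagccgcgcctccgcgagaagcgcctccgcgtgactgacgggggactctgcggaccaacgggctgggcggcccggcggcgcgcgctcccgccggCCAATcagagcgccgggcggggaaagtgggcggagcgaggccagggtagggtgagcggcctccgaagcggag
Phf19: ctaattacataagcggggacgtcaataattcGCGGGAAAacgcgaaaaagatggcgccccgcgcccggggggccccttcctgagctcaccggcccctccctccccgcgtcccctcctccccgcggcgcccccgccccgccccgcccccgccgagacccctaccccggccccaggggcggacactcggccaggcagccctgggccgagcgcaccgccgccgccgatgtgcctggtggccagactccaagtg
Counting the start site as 1, the E2F motif begins at 4 in *Ezh2*, at -219 in *Suz12* and at -208 in *Phf19*. *Ezh2* also holds 3 CCAAT boxes, which begin at -90, -64 and -11, and *Suz12* holds 1 at -61. Among the 9 subunits, these 3 genes include the lowest GSK-J4 ratio without AA, -0.98 for *Phf19*, and one of the smaller differences, -0.44 for *Suz12*. *Eed* and *Pcgf6*, at -0.76 and -0.63, hold no E2F motif in this window.

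The other subunits of the complexes were read from lists. For the counts that follow, 19.3% of all genes were at least 1.5-fold lower without AA and 17.8% with AA. At least 1.5-fold higher were 11.6% and 10.1%. Genes of the lists were not set against their expression bins. In the highest bin the medians of all genes were -0.60 without AA and -0.54 with AA. Of the other PRC2 genes, 3 of 10 symbols looked for had a value. *Rbbp4* and *Rbbp7*, genes of histone-binding proteins shared with other chromatin complexes, had log2 ratios of -0.69 and -0.73 without AA and -0.48 and -0.63 with AA, while *Ezh1* was at 0.08 in both. Of 7 other canonical PRC1 genes tested, 1 was at least 1.5-fold lower and none higher without AA, and 1 was lower and 1 higher with AA, with medians of -0.24 and -0.41, which became 0.02 and -0.17 by upper quartile and 0.12 and -0.10 by total. Without AA the lower gene was *Cbx2*, at -0.59. With AA the lower gene was *Phc2*, at -1.24, and the higher gene *Phc3*, at 0.86. *Phc3* had 1.57, 1.60, 0.181 and 1.14 FPKM. With AA it thus passed the filter by its GSK-J4 library alone, and could be counted only as higher. *Phc1*, an abundant polyhomeotic protein, had 59.7, 40.3, 53.2 and 37.2 FPKM.

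Of 15 other variant PRC1 genes, 8 were at least 1.5-fold lower and 1 higher without AA, and 6 lower and 0 higher with AA. Of all genes, 19.3% were lower and 11.6% higher without AA, and 17.8% and 10.1% with AA. The medians of these variant PRC1 genes were -0.61 and -0.49. With libraries scaled to the same total the medians were -0.23 and -0.16, and 2 genes were lower and 2 higher without AA. *Usp7*, a deubiquitinase that associates with PRC1, had 81.0 FPKM in PBS+DMSO against 35.9 in PBS+GSK-J4, and 74.2 in AA+DMSO against 37.5 in AA+GSK-J4. This gave log2 ratios of -1.15 and -0.97, lower than that of any of the 9 subunits in the same comparison. The higher gene was *Mga*, with 0.437, 1.51, 1.34 and 0.185 FPKM. Without AA it passed the filter through the GSK-J4 library alone and could enter only as higher. With AA it passed through the DMSO library alone, could enter only as lower, and is among the lower genes. *Bcorl1*, with 1.17, 0.281, 1.31 and 0.000128 FPKM, passed through the DMSO library alone in both comparisons. It could enter only as lower and is counted so in both. *Skp1a*, a subunit of the Kdm2b-containing PRC1, had ratios of -0.81 and -0.74.

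In the PR-DUB list, whose core complex removes ubiquitin from H2A, 2 of 7 genes were at least 1.5-fold lower and 1 higher without AA, and 2 of 8 lower and 1 higher with AA. The lower genes were *Asxl1*, at -1.15 and -0.91, and the associated factor *Hcfc1*, at -0.92 and -0.90, and the higher gene was *Mbd6*, at 0.59 and 1.34. The medians of this list were -0.33 and -0.22, and turned to 0.01 and 0.08 with libraries scaled to the same total. In the list of H3K27 demethylase and COMPASS genes, which act against Polycomb, 4 of 10 were lower and 0 higher without AA. With AA, 3 were lower and 1 higher. Beside this list and the PR-DUB list, 19.3% of all genes were lower and 11.6% higher without AA. With AA these shares were 17.8% and 10.1%. *Wdr5* was at -0.88 and -0.86 and *Dpy30* at -0.88 and -0.98, both subunits shared by H3K4 methyltransferases, and *Men1* was lower in both comparisons as well, at -0.60 and -0.62. *Setd1a* was at -0.87 without AA and 0.68 with AA, from at most 4.83 FPKM. Scaled to the same total, the medians of -0.54 and -0.44 became -0.20 and -0.14, and 0 genes were lower and 0 higher without AA, and 1 lower and 2 higher with AA. *Kdm6a* and *Kdm6b*, which encode the H3K27 demethylases inhibited by GSK-J4, were not analysed here. In the deposited FPKM, ratios below that of the median gene were thus found both in the Polycomb lists and in the COMPASS list. Ratios of all genes were lower at higher expression, and *Wdr5* and *Dpy30* had 100 and 230 FPKM in PBS+DMSO. The part of expression level in these list ratios was not tested.

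Among 73 developmental genes listed as bivalent Polycomb targets, 23 had a value and 16 without AA and 14 with AA passed the filter. At least 1.5-fold higher were 5 in each comparison, where 11.6% and 10.1% of all genes were, namely *Hoxc13*, *Neurod1*, *Nkx2-2*, *Nkx2-9* and *Tbx4* in both, and lower were 2 without AA and 1 with AA. *Nkx2-2* and *Tbx4* passed the filter through the GSK-J4 library alone, as did 4 targets in all without AA and 3 with AA, and such genes could enter only as higher. Of the 10 targets with at least 1 FPKM in both libraries of a comparison, 3 were higher in each, with medians of 0.10 without AA and 0.19 with AA. The share of all genes higher under this stricter filter was not computed. The medians over all targets tested of 0.18 and 0.37 stand beside 0.28 and 0.24 for the lowest expression bin of all genes, where many of these targets lie. *Nkx2-9* had 2.92, 13.9, 2.02 and 9.94 FPKM, and *Neurod1* had 3.01, 13.8, 3.10 and 11.3. The other higher genes were at most 1.33 FPKM with DMSO. Of the lower genes, *Pax6* had 1.44 and 0.176 FPKM without AA. It passed the filter through the DMSO library alone, as did 2 targets in all without AA and 1 with AA. Such genes could enter only as lower. The targets that failed the filter were below 1 FPKM in both libraries of the comparison, so the targets tested are the more expressed ones.

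**Figure D5:**
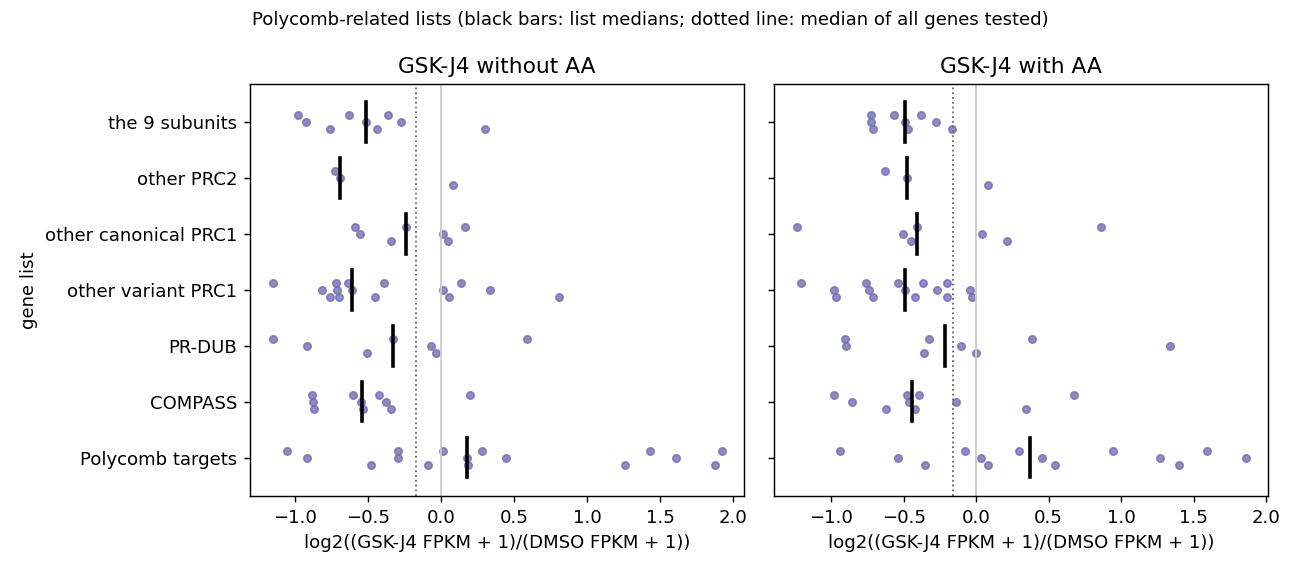
Log2 ratios of GSK-J4 to DMSO for the 9 subunits and 6 related lists, 1 point per gene with at least 1 FPKM in either library, black bars at list medians and a dotted line at the median of all genes. The subunits have medians of -0.51 and -0.49 and the Polycomb targets of 0.18 and 0.37, while the other variant PRC1 genes reach from -1.15 to 0.80 without AA. The value of 0.80 is that of *Mga*, which passed the filter there through the GSK-J4 library alone.

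The libraries were made with a DNA sample kit, which does not mark the strand, so reads from a gene and an overlapping antisense gene cannot be told apart. By GENCODE M21, exons on the opposite strand overlap 6.82% of the exon bases of *Eed*, 3.83% of *Rnf2*, 3.60% of *Suz12*, 2.61% of *Ezh2* and 1.54% of *Cbx7*. The other 4 subunits have no such overlap.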

How the data were processed

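RNA-Seq was measured in 4 libraries, 1 per condition as labelled. The authors took single-end reads, discarded duplicates, aligned with TopHat2 (mm10, per the labels) and computed FPKM with Cufflinks2. The deposited FPKM columns are headed log10 but hold linear values, up to 4790. The 2 deposited tables also hold the authors' fold changes, p-values and q-values, which were not used. FPKM was added up per gene over its coding sequence groups, and 157 of 9936 genes with a failed estimate were left out. Ratios are log2((FPKM + 1)/(FPKM + 1)) among genes with at least 1 FPKM in either library. Called means past 2-fold or 1.5-fold, and no test was run. Removal of duplicates can lower abundant genes, by an unknown amount. The files hold no read counts, and the whole-read steps of low values did not settle the depth, which is unknown.

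All subunits were named, with their paralogs in the shares and, of each related list, the 2 genes with the largest mean GSK-J4 ratio in each direction among those with at least 5 FPKM in at least 1 library, of which examples are given. *Cbx2*, *Phc3*, *Mga*, *Bcorl1*, *Mbd6*, *Men1*, *Setd1a*, *Hoxc13*, *Nkx2-2*, *Tbx4* and *Pax6* were named after their values were seen. The members and lists were chosen with earlier results of these data known. Alternatives were pseudocounts of 0.1 and 5, other filters, median centring, upper-quartile scaling, scaling to the same total, a 1.5-fold threshold, the highest coding sequence group in place of the sum, and failed estimates kept. The count of subunits in the lowest 25% of their bin, and its scalings, were added after the data were seen. Protein features were not analysed here. Some values of the related lists and paralogs are not reported here. The calculation of ratios was tested on simulated data. Computations ran in Python 3.11.15 with pandas 2.3.3, numpy 2.4.6 and scipy 1.17.1, and plots in matplotlib 3.10.9.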

Additional observations from a re-analysis of the deposited data

Results flagged for a closer look

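*Cbx7* was picked out because its log2 ratio of GSK-J4 to DMSO had opposite signs in the presence and absence of AA, at 0.30 without AA and -0.49 with AA. The ratio with AA minus that without is -0.79. Each side of each comparison is 1 library, and the difference was not tested. The FPKM of *Cbx7* was between 1.54 and 2.57 in all libraries.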

How the results depend on the processing

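No paired analysis was possible because each comparison sets 1 library against 1 and no replicate numbers are shared. An additive fit of GSK-J4 and AA over the 4 libraries, which would leave 1 degree of freedom and count any interaction as error, was not run. Settings were compared by whether a value moved by less than 1 SD over the 9 subunits, since there is no spread between replicates. Of 348 single-subunit values under alternatives, 326 moved by less than this, 22 moved by more, and 18 changed sign. The count of subunits past 2-fold without AA was 1 with a pseudocount of 0.1, which brought in *Phf19*, and at a 1.5-fold threshold it was 4 without AA and 3 with AA. The median ratio of GSK-J4 to DMSO with AA moved from -0.49 to -0.70 with a pseudocount of 0.1 and to -0.27 with scaling to the same total. The median AA ratio in DMSO turned from -0.06 to 0.009 with scaling to the same total. The median AA ratio in GSK-J4 turned from -0.004 to 0.015 with centring, 0.019 with upper-quartile scaling and 0.018 with scaling to the same total. Scaling shifts all genes by construction. Subunits at least 1.5-fold different without AA numbered 2 with a pseudocount of 5, and with AA 6 with a pseudocount of 0.1 and 0 with centring. Unknown depth and single libraries limit the scarce *Phf19*, *Ring1* and *Cbx7* most.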
